A study of Mus musculus with 12 samples.

Results

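T-box transcription factors are a family of DNA-binding proteins, and 10 of their genes (*Tbx1*, *Tbx2*, *Tbx3*, *Tbx4*, *Tbx5*, *Tbx6*, *Tbx15*, *Tbx18*, *Tbx20* and *Tbx22*) were followed here through 2 lines of mutant mouse embryos. They were taken as a fixed list of symbols, and all 10 were found among the 23420 genes counted in both lines. The libraries come from polyadenylated RNA of whole embryos at E12.5, 1 embryo to a library and 3 libraries to a group. In the *Carm1* line, of strain C57BL/6, embryos homozygous for the null allele *Carm1* tm1Mtb, a deletion of exons 2 and 3 in a gene for an arginine methyltransferase, were set against wild-type embryos. In the *Pax3* line, of mixed strain, embryos homozygous for the null Splotch allele *Pax3* Sp2H were set against wild-type embryos, *Pax3* being a transcription factor of neural crest and muscle precursors. Both lines came from intercrosses of heterozygous mice, and the mutant groups are called *Carm1* KO and *Pax3* KO below. *P* values set the difference between groups against the spread between the embryos sampled, each taken as independent. The labels do not say which embryos were littermates, so that independence could not be checked.

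All T-box proteins bind DNA through the domain that gives the family its name, first found in the product of the *T* (Brachyury) gene, and they act as activators, repressors or both. Several are known from birth defects of heart, limb, face or vertebrae, and many are expressed in restricted patches of mesenchyme or muscle. In the heart, *Tbx5* and *Tbx20* act in chamber muscle while *Tbx2* and *Tbx3* repress chamber genes in the atrioventricular canal and the conduction system. *Tbx1* acts in the pharyngeal arches, *Tbx4* and *Tbx5* in hindlimb and forelimb, *Tbx6* in the presomitic mesoderm, *Tbx15* and *Tbx18* in skeletal, dermal, epicardial and somitic mesenchyme, and *Tbx22* in the palate.

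Because the members are relatives, the coding stretches in which they are most alike are shown first, since these are where reads of 1 gene could be taken for another. Each pair of members was compared over every window of 150 coding nucleotides without gaps, 45 pairs in all, on GENCODE transcripts in the coordinates of GRCm38, which is mm10. Among the closest pairs were *Tbx15* with *Tbx18* and *Tbx2* with *Tbx3*, the genes called here and their nearest relatives, which differed at 26 and 28 of these positions. The windows lie in coding exons at chr3:99313077-99314855 (*Tbx15*, + strand), chr9:87724362-87727401 (*Tbx18*, - strand), chr11:85835801-85837061 (*Tbx2*, + strand) and chr5:119675564-119677509 (*Tbx3*, + strand), and each spans 2 exons and the intron between them. Sequences run 5′ to 3′ along the transcript, and capitals mark the bases that differ within a pair.
Tbx15: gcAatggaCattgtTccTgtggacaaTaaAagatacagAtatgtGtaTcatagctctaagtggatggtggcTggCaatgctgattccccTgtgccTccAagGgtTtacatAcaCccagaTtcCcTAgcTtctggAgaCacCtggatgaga
Tbx18: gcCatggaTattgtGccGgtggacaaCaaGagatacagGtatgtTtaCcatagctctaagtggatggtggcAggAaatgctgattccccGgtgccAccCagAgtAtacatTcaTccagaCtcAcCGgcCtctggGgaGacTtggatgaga
Tbx2: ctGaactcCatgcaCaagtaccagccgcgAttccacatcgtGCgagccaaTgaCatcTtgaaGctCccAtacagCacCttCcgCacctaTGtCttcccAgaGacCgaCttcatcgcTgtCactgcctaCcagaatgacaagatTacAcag
Tbx3: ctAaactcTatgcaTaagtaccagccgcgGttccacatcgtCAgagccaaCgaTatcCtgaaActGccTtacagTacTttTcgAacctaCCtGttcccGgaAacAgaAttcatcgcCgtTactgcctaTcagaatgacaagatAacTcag

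Over the whole coding sequences, the longest run of identical bases in any of the 45 pairs was 23 nt. In the windows printed above, most of the differing positions stand alone, separated by short shared runs. How reads with several alignments were handled is not given in the sources used here. *Tbx3* shares 115 nt of exon with the antisense gene *Tbx3os1* and *Tbx18* shares 970 nt with *D030062O11Rik* on the other strand, and without a stated strand setting reads from such partners cannot be told apart. Some members are also neighbours on the genome. *Tbx2* and *Tbx4* lie 44.5 kb apart on chromosome 11, and *Tbx3* and *Tbx5* lie 148 kb apart on chromosome 5.

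The 12 libraries held between 17183344 and 23518692 counts. *Carm1* itself had 144 ± 6.99 CPM (counts scaled to library size; mean ± SD, n = 3) in wild-type and 72.3 ± 3.55 CPM in *Carm1* KO embryos (edgeR adjusted *P* = 1.2e-15), and *Pax3* had 28.1 ± 2.99 and 20.8 ± 2.4 CPM in wild-type and *Pax3* KO embryos (edgeR adjusted *P* = 0.0014). The libraries were not balanced for Y-linked counts, which were present in *Carm1* wild-type replicate 3, *Pax3* wild-type replicates 2 and 3 and *Pax3* KO replicate 3 and at or near 0 in the other 8. Tested with edgeR (quasi-likelihood F test, *P* adjusted by Benjamini and Hochberg over every gene tested, threshold 0.05), 13.3% of 15811 genes differed in the *Carm1* line and 24.5% of 15724 in the *Pax3* line. The sums of 3 of 6 marker lists were separate between the genotypes in both lines. Cardiomyocyte markers were at 466 to 486 CPM in *Carm1* KO against 593 to 642 CPM in wild-type embryos and at 490 to 572 against 431 to 474 CPM in the *Pax3* line. Skeletal muscle markers were lower in both lines (610 to 633 against 820 to 888 CPM, and 322 to 350 against 537 to 616 CPM). The summed level of hepatocyte markers was lower as well (935 to 1133 against 1700 to 2072 CPM, and 1080 to 1173 against 1262 to 1538 CPM). Of those 14 genes 3 were called lower and 2 higher in the *Pax3* line. Neural and erythroid sums overlapped between the genotypes in both lines, and the limb and body wall mesenchyme sum overlapped in the *Pax3* line. An overlapping sum did not mean unchanged genes. Among 12 erythroid markers tested, 9 were called lower and 1 higher in the *Carm1* line (83.3%), and 1 lower and 1 higher in the *Pax3* line (16.7%). Of 12 neural markers, 4 were called higher and 3 lower in the *Carm1* line, and 3 higher and 2 lower in the *Pax3* line. The part of these shifts in the results for T-box genes was not tested. In whole embryos, fewer cells of a type and less RNA per cell cannot be told apart.

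Wild-type levels were compared per length of exon, in CPM per kb, since longer genes collect more reads. *Tbx2* stood highest in both lines, with 19.7 ± 1.82 CPM per kb in *Carm1* wild-type and 24 ± 1.16 CPM per kb in *Pax3* wild-type embryos (SD, n = 3 each). *Tbx15* followed with 14.9 ± 0.227 and 15.1 ± 0.274 CPM per kb, and then *Tbx3* with 8.75 ± 0.121 and 10.1 ± 0.12 CPM per kb. Next in both lines came *Tbx18* (7.71 and 8.71 CPM per kb), *Tbx5* (5.61 and 6.32), *Tbx4* (4.33 and 5.27) and *Tbx1* (3.03 and 4.62). By this measure the top of the order was held by *Tbx2* and *Tbx15*, a repressor of several organ fields and a regulator of skeletal and dermal mesenchyme. The order depends on the exon length, which was that of all annotated exons of a gene merged. In CPM, wild-type *Tbx3* was above *Tbx15* in both lines (means of 58 against 55.8, and 66.7 against 56.4). The lowest 3 were *Tbx6* (1.85), *Tbx20* (1.17) and *Tbx22* (0.636) in the *Carm1* line, and *Tbx20* (1.15), *Tbx22* (0.957) and *Tbx6* (0.738) in the *Pax3* line. Neighbours in the order had separate ranges over the 3 embryos in all but 1 place in each line, which were *Tbx5* and *Tbx4* in the *Carm1* line and *Tbx22* and *Tbx6* in the *Pax3* line. The lines were normalised separately and differ in strain, so levels are not compared between them.

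**Figure D1:**
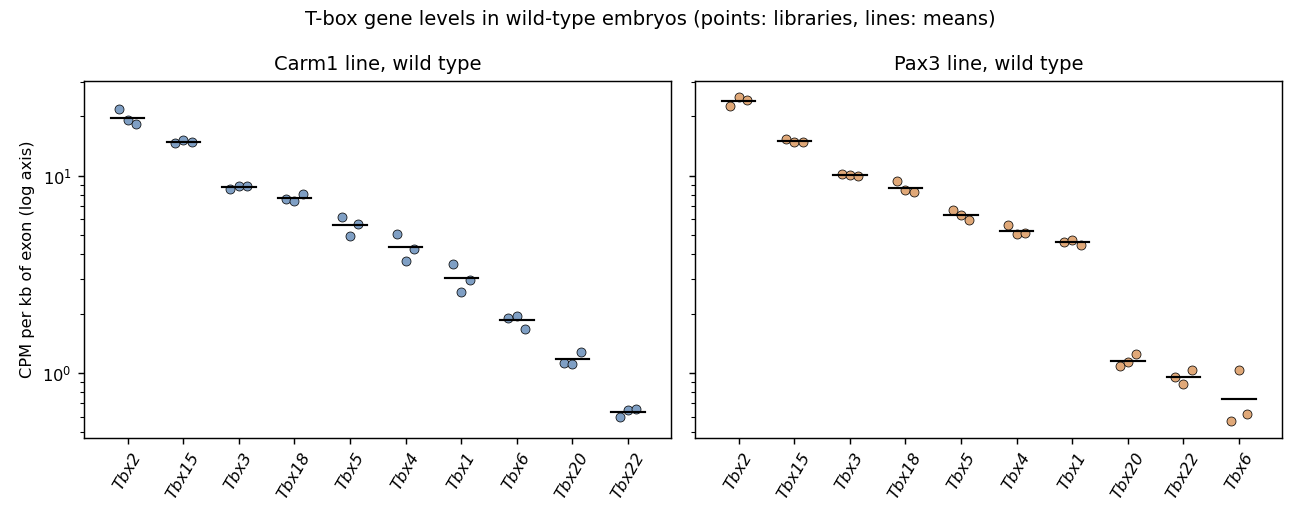
Level of each T-box gene in wild-type embryos of the *Carm1* line (left) and the *Pax3* line (right), in CPM per kb of exon on a log axis; points are the 3 libraries and lines their means. *Tbx2* and *Tbx15* head both panels, and *Tbx6* is above *Tbx20* and *Tbx22* on the left and below both on the right.

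*Tbx2*, a repressor known for its action in the atrioventricular canal, limb and eye, was higher in the mutants of both lines. In the *Carm1* line it stood at 78.9, 69.4 and 66.2 CPM in wild-type embryos 1 to 3 and at 84.3, 83.9 and 81.2 CPM in the *Carm1* KO embryos. Every *Carm1* KO library was above every wild-type library, although wild-type replicate 1 came close. The means were 83.1 ± 1.68 and 71.5 ± 6.61 CPM (SD, n = 3 each), which is a log2 fold change of 0.22 (SE 0.0555, 95% CI 0.11 to 0.33, edgeR adjusted *P* = 0.0062). *Pax3* line values of *Tbx2* were 82.4, 90.7 and 87.6 CPM in wild-type and at 117, 119 and 109 CPM in *Pax3* KO embryos. Here the gap between the groups was wider than the whole range within either of them. The means were 115 ± 5.49 and 86.9 ± 4.21 CPM, a log2 fold change of 0.40 (SE 0.0578, 95% CI 0.29 to 0.52, edgeR adjusted *P* = 9.6e-06). The exact permutation test gave *P* = 0.1 (two-sided) in each line, the smallest value that 3 embryos against 3 allow.

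The size of the *Tbx2* change depended on the treatment of transcript length and base composition in the *Pax3* line. With 63.2% GC in its longest transcript, *Tbx2* is the most GC-rich of the members. Offsets for length and GC content brought its log2 fold change to 0.21 in the *Pax3* line (edgeR adjusted *P* = 0.003), while it was 0.21 in the *Carm1* line as well. In the *Carm1* line the call was lost when wild-type replicate 2 was left out (log2 fold change 0.20, edgeR adjusted *P* = 0.054). DESeq2 as run here called *Tbx2* in that line (0.22, DESeq2 adjusted *P* = 0.018). The authors' own list of heart development genes also had *Tbx2* higher in *Carm1* KO embryos, but not below an adjusted *P* of 0.05. The effect in the *Carm1* line minus that in the *Pax3* line was -0.17 on the log2 scale (SE 0.0819, 95% CI -0.34 to -0.01), which did not pass the test after adjustment (edgeR unadjusted *P* = 0.041, adjusted *P* = 0.14) and came to -0.008 with the offsets. *Tbx2* was the only member called in both lines, against 173 of the 15461 genes tested in both (1.12%) that were called higher in both.

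*Tbx15*, which acts in the growth of skeletal and dermal mesenchyme, was lower in *Carm1* KO embryos by a small margin. Its values were 55.3, 56.7 and 55.3 CPM in wild-type and 49.4, 51 and 49 CPM in *Carm1* KO embryos. Replicates were tight in both groups and the groups did not overlap. The means were 49.8 ± 1.03 and 55.8 ± 0.849 CPM (SD, n = 3 each), which is a log2 fold change of -0.16 (SE 0.0543, 95% CI -0.27 to -0.05, edgeR adjusted *P* = 0.041). This call was near the threshold, and 10 of 16 alternatives lost it, among them DESeq2 (adjusted *P* = 0.13), 1 fit of all 12 libraries (0.067) and each of the libraries *Carm1* KO 1, 2 and 3 and wild type 2 and 3 left out (0.052 to 0.16). The *Pax3* line had *Tbx15* at 57.6, 55.9 and 55.8 CPM in wild-type and at 55.4, 50.6 and 56.3 CPM in *Pax3* KO embryos. These groups overlapped, and the log2 fold change of -0.06 (SE 0.063, 95% CI -0.19 to 0.07) had an edgeR adjusted *P* of 0.53.

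**Figure D2:**
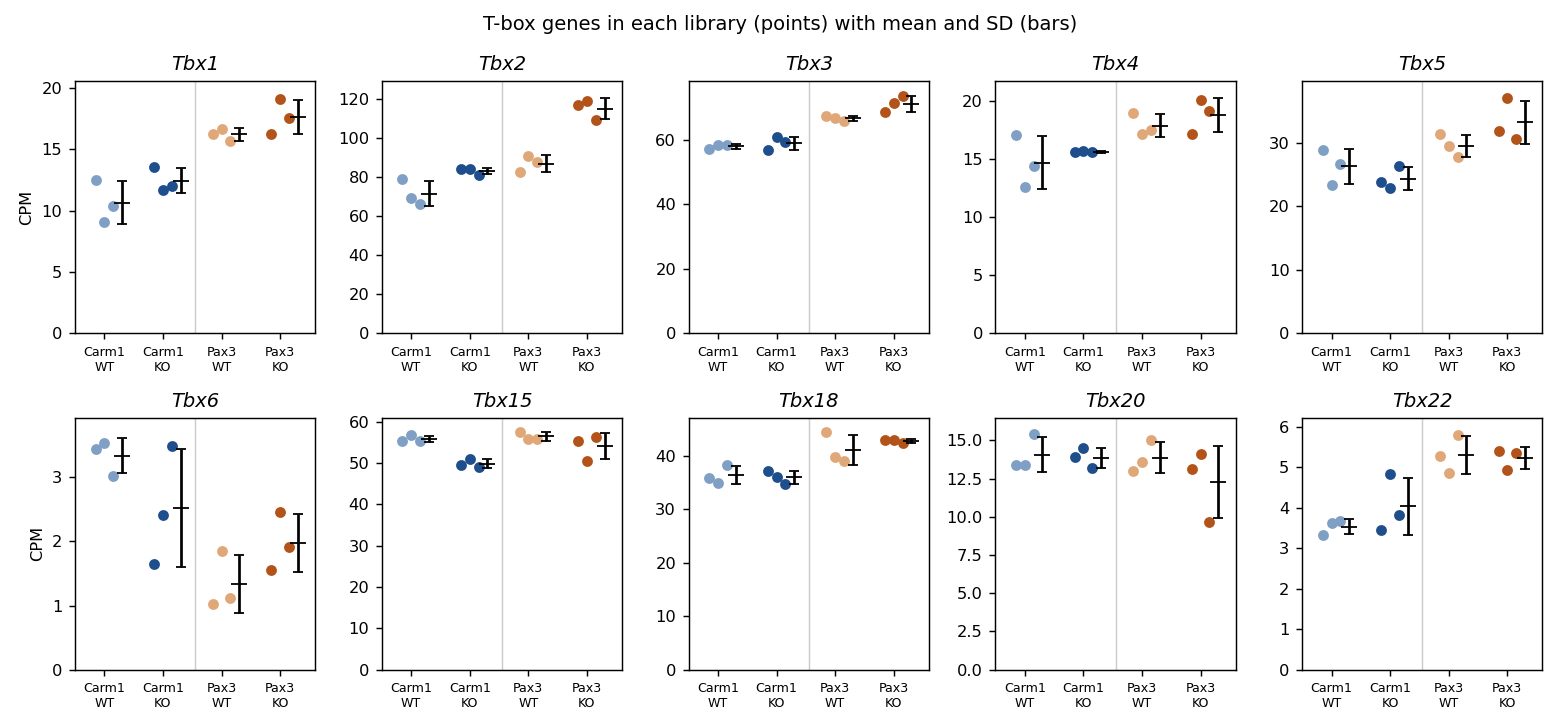
CPM of each of the 10 T-box genes in every library, by group, with each group's mean and SD as a bar; the vertical axes start at 0 and differ between panels. *Tbx2* is higher in both KO groups than in their wild types with no overlap, and the *Carm1* KO values of *Tbx15* all lie below the wild-type ones.

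Counted over the family, 2 of 10 members were called in the *Carm1* line (*Tbx2* higher, *Tbx15* lower), beside 13.3% of all genes tested (5.49% higher and 7.83% lower), and 1 of 10 in the *Pax3* line (*Tbx2* higher), beside 24.5% (14% higher and 10.5% lower). All 10 members passed the filter on low counts in both lines. The median log2 fold change of the members was 0.00 in the *Carm1* line and 0.08 in the *Pax3* line, against 0.001 and -0.003 over all genes. The groups did not overlap for 2 of 10 members in each line, beside 30% of all genes in the *Carm1* line and 39.6% in the *Pax3* line. With length and GC offsets, 58.9% of all calls in the *Carm1* line were higher, against 41.2% without them. With 10 members, each share rests on 1 or 2 genes. The changes called in the *Carm1* line were among the smaller ones, since called genes of that line had a median absolute log2 fold change of 0.315 with a lower quartile of 0.216.

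*Tbx3*, the closest relative of *Tbx2* and like it a repressor, did not pass the test in either line. It stood at 57, 58.5 and 58.4 CPM in wild-type and 56.7, 60.8 and 59.3 CPM in *Carm1* KO embryos, a log2 fold change of 0.02 (95% CI -0.08 to 0.13, edgeR adjusted *P* = 0.83). Its *Pax3* line values were 67.5, 66.7 and 65.9 CPM in wild-type and 68.6, 71.5 and 73.5 CPM in *Pax3* KO embryos. The latter groups did not overlap, yet the log2 fold change of 0.09 (95% CI -0.02 to 0.21) had an edgeR adjusted *P* of 0.24. Among the genes tested within 500 kb of *Tbx2* (*Ppm1d*, *Bcas3*, *2610027K06Rik*, *Tbx4*, *Brip1*, *Ints2* and *Med13*), 0 of 7 were called in the *Carm1* line by edgeR (0 at an unadjusted *P* below 0.05 and 0 by DESeq2), where their log2 fold changes lay between 0.01 and 0.12. In the *Pax3* line *Brip1* (-0.34, edgeR adjusted *P* = 0.011) and *Med13* (-0.16, 0.032) were lower and no neighbour was called higher.

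The limb pair of *Tbx4*, which acts in the hindlimb, and *Tbx5*, which acts in the forelimb and heart, gave no call in either line. *Tbx4* stood at 17.1, 12.6 and 14.4 CPM in *Carm1* wild-type and 15.6, 15.7 and 15.6 CPM in *Carm1* KO embryos, so that the KO values lay inside the wild-type range (log2 fold change 0.10, 95% CI -0.11 to 0.31, edgeR adjusted *P* = 0.59). The *Pax3* line gave 19, 17.2 and 17.5 CPM in wild-type and 17.2, 20.1 and 19.2 CPM in *Pax3* KO embryos (0.07, 95% CI -0.11 to 0.26, edgeR adjusted *P* = 0.61). The groups overlapped in both lines. *Tbx5* stood at 28.8, 23.3 and 26.7 CPM in *Carm1* wild-type and 23.8, 22.8 and 26.3 CPM in *Carm1* KO embryos (log2 fold change -0.11, 95% CI -0.27 to 0.06, edgeR adjusted *P* = 0.45). *Pax3* line libraries had 31.3, 29.5 and 27.8 CPM in wild-type and 31.9, 37.1 and 30.6 CPM in *Pax3* KO embryos, the highest value being that of *Pax3* KO replicate 2 (0.17, 95% CI -0.01 to 0.35, edgeR adjusted *P* = 0.15). The effects on *Tbx5* had opposite signs in the 2 lines, and their difference of -0.27 (*Carm1* minus *Pax3*, SE 0.123, 95% CI -0.52 to -0.02, edgeR unadjusted *P* = 0.038) had an adjusted *P* of 0.13.

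*Tbx20*, a gene of the heart muscle and endocardial cushions, also gave no call. Of 14 cardiomyocyte markers, 8 were called lower in the *Carm1* line (57.1%, beside 13.3% of all genes). In the *Pax3* line 7 of them were called higher and 1 lower (57.1%, beside 24.5% of all genes). *Tbx20* stood at 13.4, 13.4 and 15.4 CPM in *Carm1* wild-type and 13.9, 14.5 and 13.2 CPM in *Carm1* KO embryos (log2 fold change -0.02, 95% CI -0.22 to 0.18, edgeR adjusted *P* = 0.93). For the *Pax3* line the values were 13, 13.6 and 15 CPM in wild-type and 13.1, 14.1 and 9.63 CPM in *Pax3* KO embryos (-0.18, 95% CI -0.43 to 0.07, edgeR adjusted *P* = 0.29). *Pax3* KO replicate 3 was the lowest of the 6 libraries of its line for this gene, and the other *Pax3* KO libraries lay within the wild-type range. *Tbx1*, which acts in the pharyngeal arches and the outflow tract, stood at 12.5, 9.07 and 10.4 CPM in *Carm1* wild-type and 13.6, 11.7 and 12 CPM in *Carm1* KO embryos. Its log2 fold change of 0.23 (SE 0.116, 95% CI -0.00 to 0.47) had an edgeR adjusted *P* of 0.2, and it passed only when wild-type replicate 1, the highest of that group, was left out (0.36, edgeR adjusted *P* = 0.043). *Tbx1* in the *Pax3* line had 16.3, 16.7 and 15.7 CPM in wild-type and 16.3, 19.1 and 17.6 CPM in *Pax3* KO embryos (0.12, 95% CI -0.06 to 0.31, edgeR adjusted *P* = 0.34), and its sign turned with the length and GC offsets (-0.07).

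*Tbx18*, which acts in epicardium, sinus horns, ureter and somites, gave no call in either line. It stood at 35.9, 35 and 38.3 CPM in *Carm1* wild-type and 37.1, 36 and 34.8 CPM in *Carm1* KO embryos (log2 fold change -0.02, 95% CI -0.15 to 0.12, edgeR adjusted *P* = 0.92). Its *Pax3* line values were 44.4, 39.8 and 39.1 CPM in wild-type and 43, 43 and 42.4 CPM in *Pax3* KO embryos (0.06, 95% CI -0.09 to 0.21, edgeR adjusted *P* = 0.62). *Tbx22*, an X-linked gene of the developing palate and tongue, was among the lowest members. It ranged from 3.32 to 3.66 CPM in *Carm1* wild-type and from 3.46 to 4.82 CPM in *Carm1* KO embryos (0.19, 95% CI -0.19 to 0.57, edgeR adjusted *P* = 0.57), and from 4.86 to 5.8 and 4.92 to 5.41 CPM in *Pax3* wild-type and KO embryos (-0.03, 95% CI -0.33 to 0.27, edgeR adjusted *P* = 0.91). The groups overlapped in each of these 4 comparisons.

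**Figure D3:**
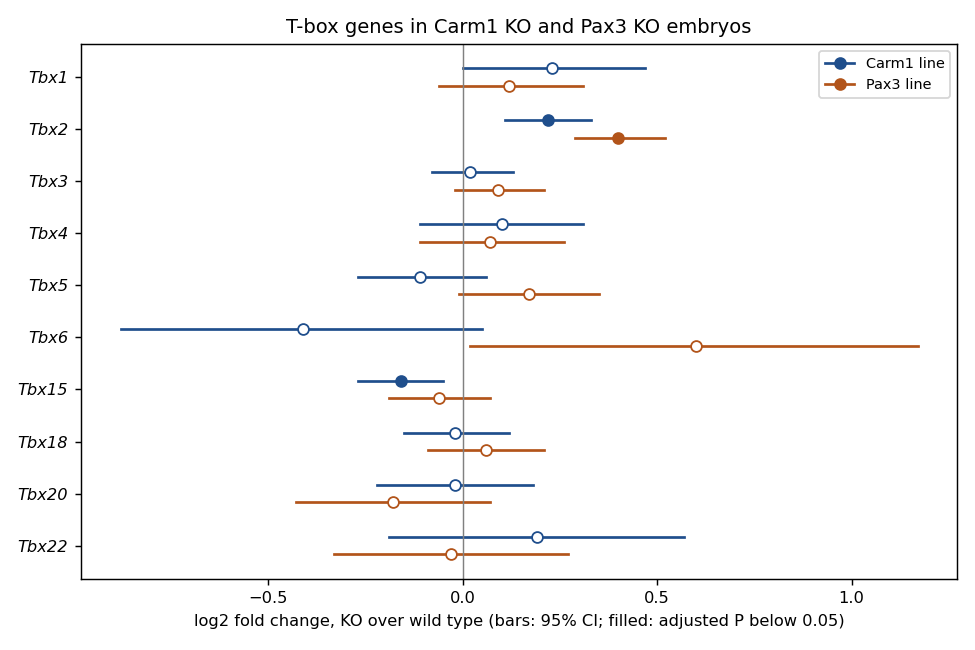
Log2 fold change of KO over wild type for each T-box gene in the *Carm1* line (blue) and the *Pax3* line (orange), with 95% confidence intervals; filled points have an edgeR adjusted *P* below 0.05. Only *Tbx2* (both lines) and *Tbx15* (*Carm1* line) are filled, and *Tbx6* has the widest intervals, with points on opposite sides of 0.

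*Tbx6*, which directs paraxial mesoderm and is expressed in the presomitic mesoderm of the tail, was the member whose effects in the 2 lines lay farthest apart, at counts low enough to make it imprecise. In the *Carm1* line it had 58, 82 and 62 counts in wild-type and 30, 43 and 59 counts in *Carm1* KO embryos, or 3.44, 3.53 and 3.02 CPM and 1.65, 2.41 and 3.48 CPM. *Carm1* KO replicate 3 lay within the wild-type range and the other *Carm1* KO libraries below it (log2 fold change -0.41, SE 0.228, 95% CI -0.88 to 0.05, edgeR adjusted *P* = 0.25). Single libraries moved that value, to -0.18 without *Carm1* KO replicate 1 and to -0.72 without *Carm1* KO replicate 3 (adjusted *P* = 0.72 and 0.074). The *Pax3* line held 21, 32 and 26 counts in wild-type and 35, 54 and 45 counts in *Pax3* KO embryos, or 1.02, 1.85 and 1.12 CPM and 1.56, 2.46 and 1.91 CPM. Wild-type replicate 2 overlapped the *Pax3* KO range (0.60, SE 0.278, 95% CI 0.02 to 1.17, edgeR adjusted *P* = 0.12). The value was 0.88 without that replicate (adjusted *P* = 0.038), 0.41 without *Pax3* KO replicate 2 (0.41) and 0.34 with the length and GC offsets (0.44). The difference of the effects was -1.0 on the log2 scale (SE 0.369, 95% CI -1.75 to -0.25, edgeR adjusted *P* = 0.054), just above the threshold. Of 21 alternatives 6 put it below, among them no filter on low counts (adjusted *P* = 0.042), a minimum of 10 counts in every library (0.046), and the libraries *Carm1* KO 3 (0.018), *Pax3* wild type 2 (0.017) and *Pax3* KO 1 (0.042) left out, whereas the length and GC offsets gave -0.75 (0.15).

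No member passed the test of the difference between the lines (0 of 10, beside 19.1% of 16292 genes). At an unadjusted edgeR *P* below 0.05 there were 3, *Tbx2*, *Tbx5* and *Tbx6*, beside 32% of all genes, and DESeq2 called 0. The sign of the difference was negative for all of these 3. The stability of the 3 results closest to the threshold and of *Tbx2* in the *Pax3* line is plotted over all alternatives.

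**Figure D4:**
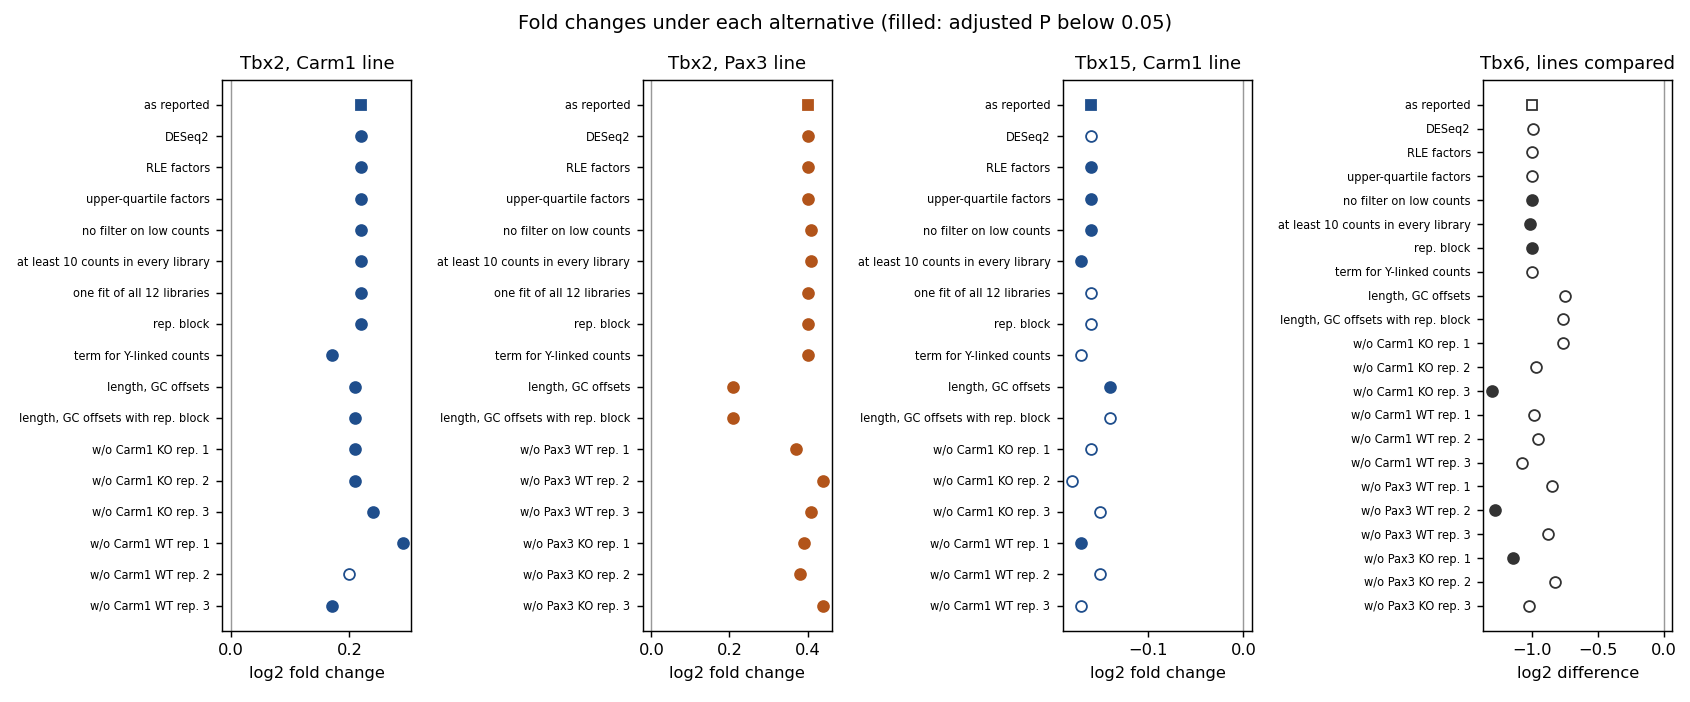
Log2 fold change of *Tbx2* in each line and of *Tbx15* in the *Carm1* line, and the difference of the *Tbx6* effects between the lines (*Carm1* minus *Pax3*), as reported (squares) and under each alternative (circles); filled symbols have an adjusted *P* below 0.05. *Tbx2* keeps its sign throughout, with 0.17 to 0.29 in the *Carm1* line (1 open symbol) and 0.21 to 0.44 in the *Pax3* line, where the length and GC offsets give the lowest values, while the filled symbols of *Tbx15* and *Tbx6* are interspersed with open ones.

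The rest of the T-box family was described by the same fits. Of 7 further family genes in the tables, *Tbx10*, *Tbx19* and *Tbx21* had at most 10 counts in any library and were not tested. *T*, the marker of early mesoderm and notochord, had 20 to 51 counts per library and no call (log2 fold changes 0.19 and 0.27, edgeR adjusted *P* = 0.73 and 0.62). *Tbr1*, a factor of cortical neurons, gave no call either (-0.07 and -0.12, edgeR adjusted *P* = 0.64 and 0.35). *Eomes*, a factor of early endoderm and of cortical progenitors, was at 12.1, 13.7 and 14.1 CPM in wild-type and 11.2, 11.4 and 10.1 CPM in *Pax3* KO embryos. It was called lower there (-0.29, SE 0.106, edgeR adjusted *P* = 0.048), although 9 of 16 alternatives lost the call, among them DESeq2 (adjusted *P* = 0.091) and each of the libraries wild type 2 and 3 and *Pax3* KO 1, 2 and 3 left out (0.071 to 0.19). It gave no call in the *Carm1* line (-0.16, edgeR adjusted *P* = 0.33).

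*Mga*, which carries a T-box as well as a domain that pairs with MAX, was the family gene with the highest CPM and the clearest contrast between lines. Its exons span 15.34 kb, and per kb it was below *Tbx2* and *Tbx15* in wild-type embryos. There *Mga* had 10.3 to 10.9 CPM per kb in the *Carm1* line and 12 to 13.8 in the *Pax3* line. It stood at 211, 185 and 184 CPM in wild-type and 163, 167 and 161 CPM in *Pax3* KO embryos, with no overlap. It was lower in *Pax3* KO embryos by -0.24 on the log2 scale (SE 0.0561, edgeR adjusted *P* = 0.0024), but by only -0.08 with the length and GC offsets (adjusted *P* = 0.22). In the *Carm1* line it stood at 165, 158 and 167 CPM in wild-type and 174, 181 and 171 CPM in *Carm1* KO embryos (0.10, SE 0.0443, edgeR adjusted *P* = 0.13; 0.14 with the offsets, adjusted *P* = 0.0034). The difference between the effects, 0.36 (SE 0.0723, edgeR adjusted *P* = 6.4e-04), passed the test in all 21 alternatives.

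Genes that work beside the members in their fields were counted from 6 lists, on the same fits. Some genes, among them *Fgf8*, *Tcf21* and *Foxc2*, stand in several lists, so the list counts are not separate. The length and GC offsets moved the share of all genes called from 13.3% to 20% in the *Carm1* line and from 24.5% to 17.3% in the *Pax3* line, and list counts with offsets are read against those shares. Of 20 limb bud genes tested in the *Carm1* line, which go with *Tbx4* and *Tbx5*, 4 were higher and 1 lower (25%, beside 13.3% of all genes; median log2 fold change 0.13). Of 19 tested in the *Pax3* line, 5 were higher and 2 lower (36.8%, beside 24.5%; median 0.13), and with the length and GC offsets 1 was higher and 2 lower (beside 17.3%). Levels in whole embryos do not place changes of these genes in the limb. *Shh*, the signal of the posterior limb margin, rose from 8.8 ± 0.785 to 14.3 ± 0.758 CPM in *Carm1* KO embryos (log2 fold change 0.70, edgeR adjusted *P* = 2.4e-05). *Fgf8*, a growth factor of the limb ridge and pharyngeal arches, was at 1.28 ± 0.219 CPM in wild-type and 2.58 ± 0.5 CPM in *Carm1* KO embryos (0.99, edgeR adjusted *P* = 0.011), a call that was lost without *Carm1* KO replicate 1 (0.081). *Fgf8* in the *Pax3* line was at 1.75 ± 0.208 and 2.84 ± 0.528 CPM (0.69, edgeR adjusted *P* = 0.026), and 6 of 16 alternatives lost the call, among them the libraries wild type 1 (0.098), *Pax3* KO 1 (0.057) and *Pax3* KO 2 (0.15) left out and the length and GC offsets (0.33). *Tfap2b*, a factor of limb mesenchyme and neural crest, fell from 108 ± 8.21 to 77.8 ± 4.08 CPM in *Pax3* KO embryos (-0.48, edgeR adjusted *P* = 2.2e-06).

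Heart chamber and atrioventricular canal genes, which go with *Tbx2*, *Tbx3*, *Tbx5* and *Tbx20*, had 1 higher and 1 lower of 21 tested in the *Carm1* line (9.52%, beside 13.3% of all genes; median 0.02), and 4 higher and 2 lower with the length and GC offsets (beside 20%). *Cacna1g*, a T-type calcium channel of pacemaker and neuronal cells, fell from 291 ± 18.3 to 213 ± 13.8 CPM (log2 fold change -0.45, edgeR adjusted *P* = 7.2e-08). *Hand1*, a factor of the left ventricle, was at 4.33 ± 1.52 CPM in wild-type and 6.99 ± 0.929 CPM in *Carm1* KO embryos (0.71, edgeR adjusted *P* = 0.025). The call was lost without *Carm1* KO replicate 1 (0.61, adjusted *P* = 0.13), *Carm1* KO replicate 3 (0.72, adjusted *P* = 0.078) or wild-type replicate 2, where the fold change also dropped most (0.43, adjusted *P* = 0.12). Of those in the *Pax3* line 3 were higher and 3 lower of 22 (27.3%, median 0.05). There *Nppa*, a chamber hormone gene that *Tbx5* is known to activate and *Tbx2* and *Tbx3* to repress, rose from 23.8 ± 3.17 to 36.3 ± 1.48 CPM (0.61, edgeR adjusted *P* = 1.5e-05; 0.30 with the length and GC offsets). *Hand1* was lower in *Pax3* KO embryos (-0.45, edgeR adjusted *P* = 0.031), a call lost in 5 of 16 alternatives, with an adjusted *P* of 0.19 without *Pax3* KO replicate 3, 0.091 without wild-type replicate 1 and 0.086 without wild-type replicate 2.

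Pharyngeal arch genes, which go with *Tbx1*, had the largest share of calls of the 6 lists in the *Pax3* line, 7 higher and 6 lower of 20 tested (65%, beside 24.5% of all genes; median -0.03), and 3 higher and 5 lower with the length and GC offsets (beside 17.3%). *Tcf21*, a factor of epicardium and of branchial muscle precursors, rose from 6.79 ± 0.771 to 10.7 ± 0.354 CPM (log2 fold change 0.65, edgeR adjusted *P* = 2.4e-04). *Msc*, another factor of branchial muscle precursors, fell from 10.9 ± 1.54 to 6.97 ± 0.997 CPM (-0.65, edgeR adjusted *P* = 6.0e-04). *Mef2c*, a factor of heart and muscle differentiation, fell from 66.8 ± 1.83 to 43.7 ± 2.67 CPM (-0.61, edgeR adjusted *P* = 8.5e-08). In the *Carm1* line 4 were higher and 1 lower of 20 (25%, median 0.02). *Foxc1*, a forkhead factor of arch and somite mesenchyme, rose there from 50.4 ± 2.66 to 63.9 ± 2.68 CPM (0.35, edgeR adjusted *P* = 4.5e-05). *Mef2c* fell in these embryos from 84.6 ± 0.921 to 70.3 ± 1.32 CPM (-0.27, edgeR adjusted *P* = 2.2e-04).

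Among presomitic and somitic genes, which go with *Tbx6* and *Tbx18*, 4 were higher and 2 lower of 14 tested in the *Carm1* line (42.9%, beside 13.3%; median 0.22). DESeq2, which tested 18 of the list, called 2 higher and none lower there (beside 7.2% of all genes by DESeq2). *Dll1*, a Notch ligand that *Tbx6* is known to activate, rose from 45.3 ± 1.25 to 58 ± 0.19 CPM in *Carm1* KO embryos (log2 fold change 0.35, edgeR adjusted *P* = 2.2e-05), and the Notch ligand *Dll3* from 19.3 ± 1.38 to 24.9 ± 1.2 CPM (0.36, edgeR adjusted *P* = 0.0021). Both genes are also expressed in the nervous system, and neural markers held 4 higher and 3 lower of 12 (58.3%, beside 13.3% of all genes). The *Dll1* change had the opposite sign to the *Tbx6* value in that line, which did not pass the test. In the *Pax3* line 4 were higher and none lower of 14 (28.6%, median 0.09), whereas with the length and GC offsets none was higher and 1 was lower (beside 17.3%). *Foxc2*, a factor of somites and vessels, was at 28.5 ± 2.22 CPM in wild-type and 37.3 ± 3.74 CPM in *Pax3* KO embryos (0.39, edgeR adjusted *P* = 0.0017; 0.17 with the offsets, adjusted *P* = 0.15). *Tcf15*, a factor of the epithelial somite, was at 7.11 ± 0.728 and 9.49 ± 1.03 CPM (0.42, edgeR adjusted *P* = 0.017), but the call was lost without wild-type replicate 1 (0.088) or *Pax3* KO replicate 3 (0.13) and the sign turned with the offsets (-0.01, adjusted *P* = 0.96).

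Genes of epicardium, sinus horns and ureter, which go with *Tbx18*, gave no call among 15 tested in the *Carm1* line (edgeR, median 0.04), with 5 at an unadjusted *P* below 0.05, 0 called by DESeq2 and 2 called higher with the length and GC offsets (beside 20%). In the *Pax3* line 2 were higher and 3 lower of 14 (35.7%, median -0.00). *Foxd1*, a factor of kidney stroma and of face and brain, rose there from 46.1 ± 4.22 to 69.8 ± 2.6 CPM (log2 fold change 0.60, edgeR adjusted *P* = 2.0e-07). Of 22 dermal, skeletal and palatal genes, which go with *Tbx15* and *Tbx22*, 3 were higher and 5 lower in the *Carm1* line (36.4%, beside 13.3%; median 0.05). *Osr2*, a factor of palate growth, fell from 20.1 ± 1.17 to 14.6 ± 1.76 CPM (-0.46, edgeR adjusted *P* = 8.2e-04). In the *Pax3* line 5 were higher and 2 lower of 22 (31.8%, median 0.03), and 2 higher and 3 lower with the length and GC offsets (beside 17.3%). *Msx1*, a homeobox gene of palate, tooth and limb mesenchyme, rose there from 24 ± 1.81 to 33.6 ± 0.957 CPM (0.48, edgeR adjusted *P* = 9.2e-05). Markers of limb and body wall mesenchyme, the tissue of *Tbx15*, had a summed level of 3598 to 3722 CPM in *Carm1* KO and 3770 to 4202 CPM in *Carm1* wild-type embryos. Of these 12 genes, 3 were called higher and 2 lower (41.7%, beside 13.3% of all genes), with a median log2 fold change of 0.06. All 12 were above 1 CPM in every library. *Col1a1*, 1 of the 2 lower genes, fell from 973 ± 124 to 777 ± 12.5 CPM (-0.32, edgeR adjusted *P* = 0.0035). The part of these markers in the lower *Tbx15* level was not tested.

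**Figure D5:**
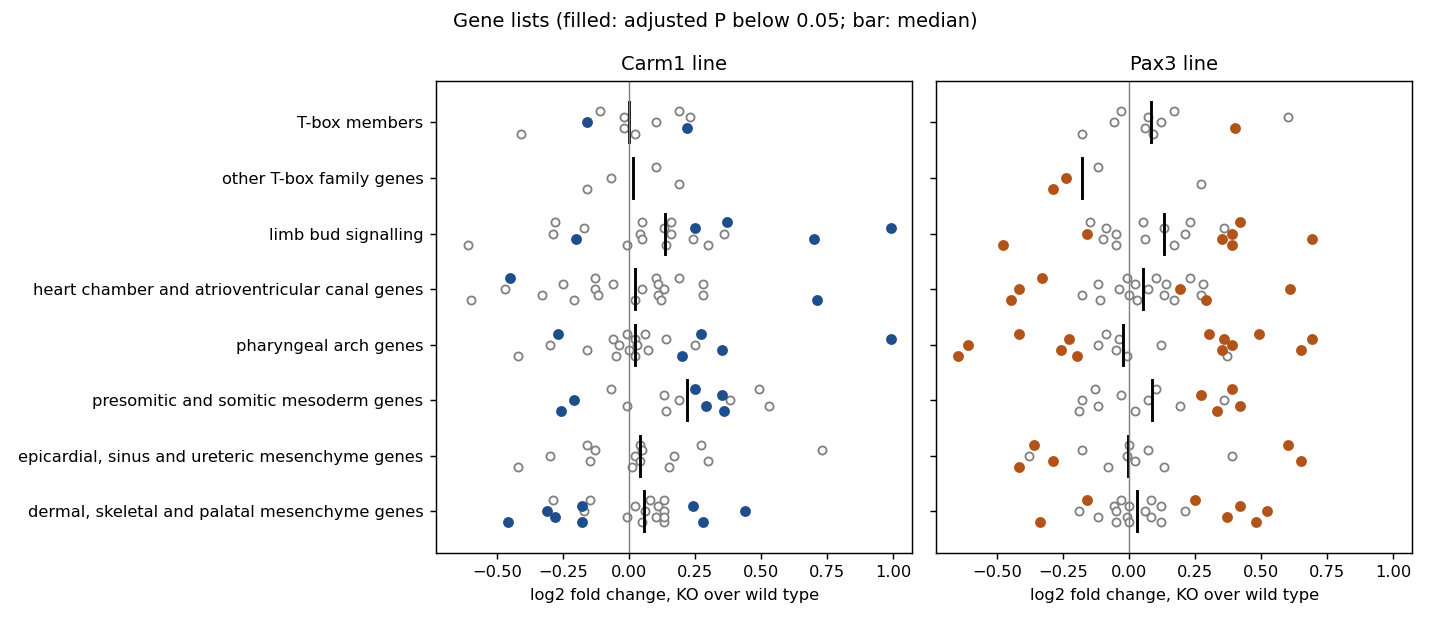
Log2 fold change of KO over wild type in the *Carm1* line (left) and the *Pax3* line (right) for the 10 T-box members, the 4 other family genes tested and 6 lists of genes that act in the same fields; filled points have an edgeR adjusted *P* below 0.05 and bars are medians. The T-box members lie between -0.41 and 0.60, and the called genes of most lists lie on both sides of 0.

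The genes whose levels followed those of the called members most closely were found by Pearson's correlation of log2 CPM over the 12 libraries, after the mean of each line was subtracted, among 14842 genes, as a description only. The 12 points share their genotype groups and depth range, so genes picked this way tend to share the member's difference between genotypes. For *Tbx2* they were *H1fx* (r = 0.977), a linker histone gene, *Fgfr3* (r = 0.977), an FGF receptor, and *Tyro3* (r = 0.968), a receptor tyrosine kinase. *Fgfr3* was higher in both mutants, like *Tbx2* (log2 fold change 0.26, edgeR adjusted *P* = 5.6e-04 in the *Carm1* line and 0.43, edgeR adjusted *P* = 1.4e-05 in the *Pax3* line). *Tyro3* was called in the *Pax3* line (0.22, edgeR adjusted *P* = 0.0089) but not in the *Carm1* line (0.12, edgeR adjusted *P* = 0.12). For *Tbx15* they included *Hlf* (r = 0.956), a bZIP factor, and *Dsc3* (r = 0.952), a desmosomal cadherin of epithelia. *Hlf* was lower in *Carm1* KO embryos, like *Tbx15* (-0.43, edgeR adjusted *P* = 0.012), and was not called in the *Pax3* line (-0.14, edgeR adjusted *P* = 0.49). *Dsc3* was called in neither line (-0.26 and -0.11, edgeR adjusted *P* = 0.3 and 0.66). Erythroid markers as a list were called lower in 9 of 12 and higher in 1 of 12 in the *Carm1* line (83.3%, beside 13.3% of all genes), and their part in the *Tbx15* value was not tested.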

How the data were processed

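RNA was measured in 12 libraries, 3 in each of 4 groups, which the sample labels name together with replicate numbers. The deposited values are raw counts per gene, whole numbers without normalization or pooling, which the authors made from paired reads with STAR on mm10 and featureCounts over exons. Versions of these tools and the strand setting are not given in the sources used here. CPM values use TMM factors set within each line. Genes kept by filterByExpr were tested per line with edgeR (4.0.16, R 4.3.3) by the robust quasi-likelihood test, with Benjamini-Hochberg adjustment over all genes tested and a threshold of 0.05, and the difference of the lines as an interaction over all 12 libraries. The authors used DESeq2, which was run as an alternative (1.42.0, default settings). Other alternatives were RLE and upper-quartile factors, other filters, a joint fit of both lines, a block for the replicate number, a term for libraries with at least 100 Y-linked counts, offsets for exon length and GC content (splines with 5 degrees of freedom per library), and leaving out each library. The test was first run on simulated data. Log2 CPM for correlations used a prior count of 2 and left out genes averaging under 1 CPM. Positions, lengths and coding sequences come from GENCODE on GRCm38, which matched 21777 of 23420 symbols as written and 1262 through a synonym, while 381 had no match.

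Members, gene lists, tests and the rule for named genes were chosen with earlier results of these data known. Named are all members and other T-box genes and the targeted genes. From each pathway list and line at most 4 called genes with the largest absolute fold change are named, and from each marker list at most 3. For each called member the 3 genes with the highest correlation are named as well. Some items that this rule selects, and some sequences, are not reported here. Depth was 17183344 to 23518692 counts per library, and the fold changes of *Tbx6*, the member with the fewest counts, are the least precise.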

Additional observations from a re-analysis of the deposited data

Results flagged for a closer look

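The effects of the 2 genotypes differed by the edgeR interaction test (*Carm1* line minus *Pax3* line, log2 scale, Benjamini-Hochberg adjusted) for the following named genes, none of them among the 10 T-box members. *Mga*, the T-box gene that pairs with MAX, differed by 0.36 (adjusted *P* = 6.4e-04), being 0.10 in the *Carm1* line and -0.24 in the *Pax3* line. The targeted genes differed by -0.92 for *Carm1* (adjusted *P* = 2.4e-10) and by 0.82 for *Pax3* (adjusted *P* = 2.9e-05), the latter with a log2 fold change of 0.37 in *Carm1* KO embryos. Among genes of the heart and epicardium, *Hand1* differed by 1.17 (adjusted *P* = 0.0028), *Nppa* by -0.72 (1.0e-04), *Cacna1g* by -0.64 (7.2e-07), *Mef2c* by 0.35 (0.0014) and *Tcf21* by -1.06 (4.2e-04). *Tcf21* was at -0.42 in the *Carm1* line and 0.65 in the *Pax3* line. Among limb, somite and mesenchyme genes, *Shh* differed by 0.48 (adjusted *P* = 0.02), *Tfap2b* by 0.28 (0.017), *Dll1* by 0.35 (0.0044), *Foxd1* by -0.42 (0.0017), *Osr2* by -0.56 (0.0041) and *Msx1* by -0.34 (0.039). The *Msx1* call was lost in 11 of 21 alternatives, with the length and GC offsets (-0.20, adjusted *P* = 0.22) and in 9 of the 12 fits without a library (adjusted *P* up to 0.13), that of *Shh* in 4, each without a library (up to 0.08), and that of *Tfap2b* in 2, each without a library (up to 0.056). The other differences given here passed the test in all 21 alternatives. The lines differ in strain as well as genotype, and these cannot be told apart in the difference.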

How the results depend on the processing

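The count of members called in the *Carm1* line (2) was 1, *Tbx2*, with DESeq2, with 1 fit of all 12 libraries, with the term for Y-linked counts, with the replicate block and with the length and GC offsets together with the replicate block, and 0 to 3 when a library was left out (0 without wild-type replicate 2, 3 without wild-type replicate 1). Only wild-type replicate 3 of the *Carm1* line had Y-linked counts, so there the Y-linked term is not separate from leaving that library out. *Tbx2* was at 0.17 under both (edgeR adjusted *P* = 0.034 and 0.032). In the *Pax3* line the count was 1, *Tbx2*, under each alternative except without wild-type replicate 2, and leaving out a library gave 1 to 2. Between the lines, 1 member, *Tbx6*, was called in place of 0 with no filter on low counts, with at least 10 counts in every library and with the replicate block, and 0 to 1 when a library was left out. Deviations of same-numbered libraries correlated at -0.041, 0.001 and -0.042 in the *Carm1* line and at 0.133, -0.092 and 0.227 in the *Pax3* line. Those of differently numbered libraries correlated at -0.01 to 0.05 and at -0.325 to 0.236. With 3 libraries a group, these values cannot show whether the replicate numbers pair embryos. The block called 1787 genes against 2106, 4177 against 3851, and 3094 against 3115 between the lines.

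Over all genes, leaving out a library gave 1224 to 2290 calls in the *Carm1* line (1224 without KO replicate 1, 1381 without KO replicate 2, 1349 without wild-type replicate 2) and 2454 to 4103 in the *Pax3* line (2565 without KO replicate 1, 2454 without KO replicate 3). With the length and GC offsets 58.9% of calls were higher in *Carm1* KO embryos, against 41.2% without. Signs turned for members that were not called: in the *Carm1* line *Tbx18* (0.02 with the Y-linked term, 0.01 with offsets, with and without the block; -0.04 to 0.02 without a library), *Tbx20* (0.05, 0.02 and 0.02; -0.06 to 0.05) and *Tbx4* (-0.005 to 0.21 without a library), in the *Pax3* line *Tbx1* (-0.07 with offsets, with and without the block) and *Tbx22* (0.14 with both; -0.08 to 0.05 without a library), and for *Tbx4* the difference of the lines (-0.07 to 0.15). *Tcf15* came to -0.01 with offsets, with and without the block. The cause was not tested.

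At 3 embryos a group no exact test of a single gene can go below *P* = 0.1, and at 21 to 82 counts per library *Tbx6* has confidence intervals that span more than the whole range of the other members' fold changes.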
